A study of Rattus norvegicus with 12 samples.

Results

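Fatty acid synthesis and desaturation genes were followed across the pancreatic islets of growth-restricted and control rats. The set held 10 genes (Acly, Me1, Acaca, Fasn, Elovl6, Scd1, Fads1, Fads2, Gpd1 and Srebf1) of the 25888 gene symbols in the deposited count table. Each was represented by the transcript with the highest mean count over the 12 libraries, taken from the 13 transcripts listed for these genes. All 10 passed the filter on low counts, which kept 20733 of 30309 transcripts. The set was chosen by pathway and by the 2-week levels of Scd1 and Gpd1, which were known to be higher in growth-restricted islets, so values in that contrast are a description and carry no test.

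The animals were Sprague Dawley rats. Rats with intrauterine growth restriction (IUGR) came from dams whose uterine arteries had been ligated on both sides at embryonic day 18, a surgical model that reduces placental blood flow. Control rats came from litters culled to 8 pups. Islets were isolated with collagenase and a Histopaque density gradient at 2 or 10 weeks of age, which gave 3 libraries each of IUGR 2-week, control 2-week, IUGR 10-week and control 10-week islets. Pooling of animals or litters and sex are not in the labels, so p-values reflect the spread between these libraries and may not cover that between litters. Total RNA was depleted of ribosomal RNA before stranded libraries were made.

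Cells build fatty acids from acetyl-CoA that is released from citrate in the cytosol, carboxylated to malonyl-CoA and extended by fatty acid synthase at the expense of NADPH. The product, palmitate, is elongated, made unsaturated by desaturases that insert a double bond, and joined to a glycerol phosphate backbone for storage or membranes. In beta cells of the islet, citrate export, malic enzyme and malonyl-CoA have been studied as links between glucose metabolism and insulin secretion, and malonyl-CoA restrains the entry of fatty acids into mitochondria.

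Totals ran from 30.4 to 64.2 M counts per library (M, mega), and Gpd1, which had the lowest single count of any member, had between 104 and 3244 counts per library. Levels are given as CPM, counts per mega-count of the library, scaled by the trimmed mean of M values (scaled CPM). They are comparable between libraries for a gene but not between genes, because no transcript length enters. The libraries differed in exocrine RNA. Genes of acinar cells, which make digestive enzymes, took 3.93% to 8.40% of counts in IUGR islets and 19.5% to 38.4% in control islets at 2 weeks, and 0.571% to 2.15% and 12.9% to 43.9% at 10 weeks. Beta cell markers summed to between 21900 and 191000 scaled CPM in the 12 libraries, so the labelled tissue carried its defining RNAs throughout. In bulk islets, fewer cells of a type and less RNA per cell cannot be told apart.

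**Figure D1:**
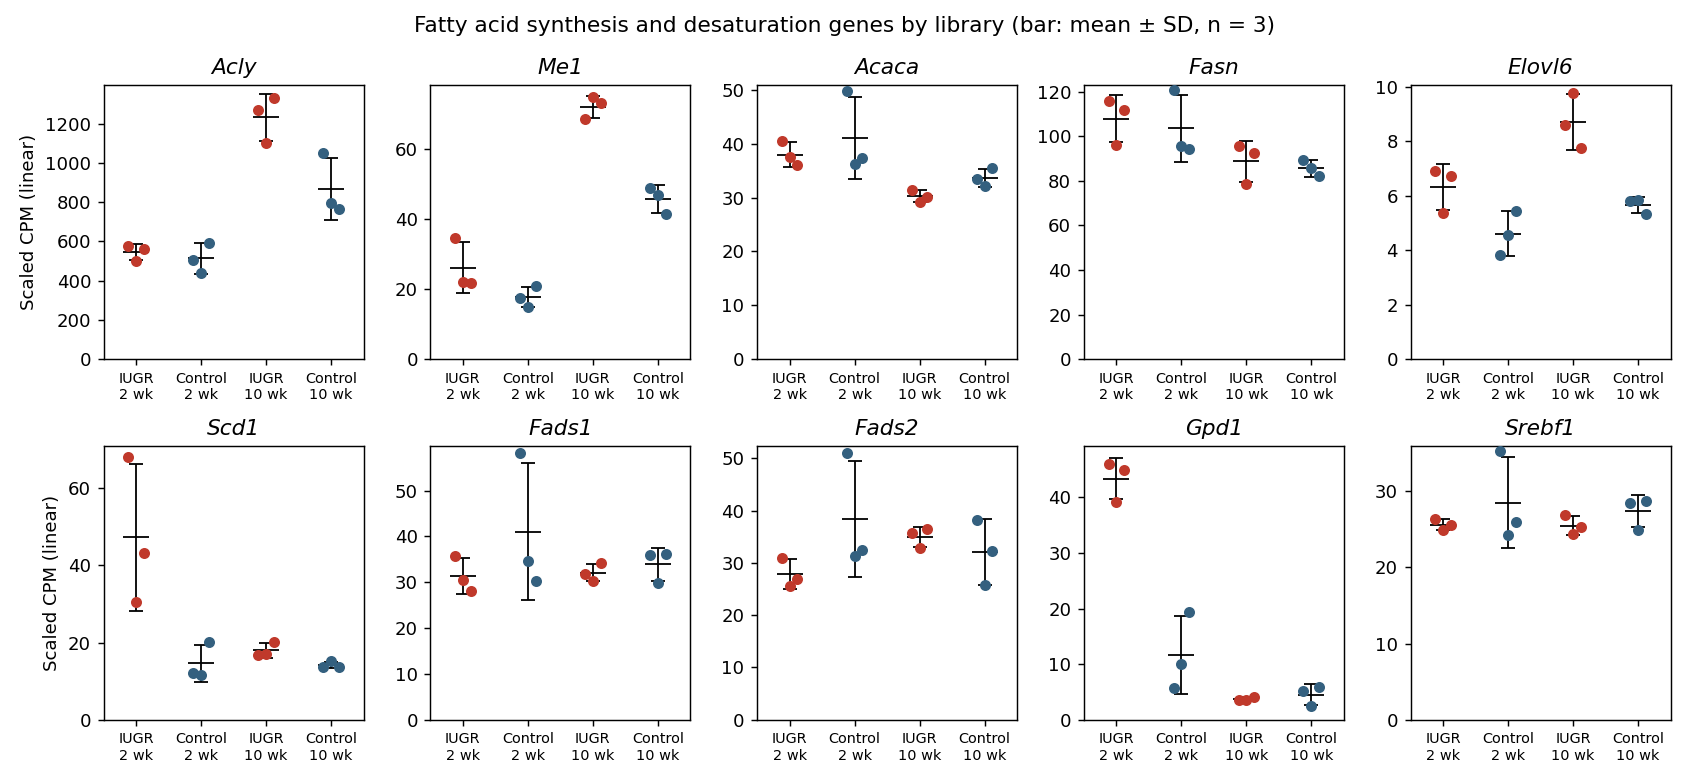
Scaled CPM of the 10 genes in each library (points, linear axis from 0), with the mean and SD of 3 libraries, for IUGR and control islets at 2 and 10 weeks. Scd1 and Gpd1 are high in the 3 IUGR libraries at 2 weeks, while Acly and Me1 are high in both groups at 10 weeks and higher in IUGR than in control libraries of that age.

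At 2 weeks Gpd1 and Scd1 were the members furthest from control, and most of the core synthesis genes lay near it. Gpd1 averaged 43.4 ± 3.65 scaled CPM in IUGR islets and 11.7 ± 7.01 in control islets (SD, n = 3 each). Scd1 averaged 47.2 ± 19.1 in IUGR islets and 14.6 ± 4.83 in control islets (SD, n = 3 each). Fasn averaged 108 ± 10.5 in IUGR islets and 103 ± 14.8 in control islets. IUGR and control libraries did not overlap for 4 of the 10 genes, 3 higher and 1 lower in IUGR, where 38.7% of all transcripts did not overlap (21.8% higher, 16.8% lower). By adjusted p under 0.05 in the fit over all transcripts, 3.88% of transcripts passed and 1.66% passed as higher, and Scd1 and Gpd1 were the members that did. That is how the set was chosen, and nothing is read from it.

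Scd1 encodes stearoyl-CoA desaturase, which puts the first double bond into saturated acyl-CoA and so makes oleate and palmitoleate. It had 68.1, 30.5 and 43.2 scaled CPM in the IUGR libraries, against 12, 11.7 and 20.2 in the control libraries. Every IUGR library lay above every control library, and the IUGR libraries differed among themselves by more than the controls did. The fitted log2 fold change was 1.69 ± 0.28 (SE), a fold of 3.22. Gpd1 encodes the cytosolic glycerol-3-phosphate dehydrogenase, which supplies the glycerol backbone of triglycerides and phospholipids and oxidises NADH. It had 46.0, 39.2 and 45.0 scaled CPM in the IUGR libraries, against 5.67, 10.0 and 19.4 in the control libraries. Here the IUGR libraries were close together and the controls spread widely. The fitted log2 fold change was 1.89 ± 0.39 (SE), a fold of 3.70.

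The next members by size were well below these. Me1, the cytosolic malic enzyme that makes NADPH, had 34.6, 22 and 21.8 scaled CPM in the IUGR libraries, against 17.3, 15 and 20.8 in the control libraries, a log2 fold change of 0.56 ± 0.18. The groups were separated by a narrow gap, and IUGR replicate 1 stood well above the other two. Without it the Me1 value was 0.31. Elovl6, which elongates palmitate to stearate, had 6.90, 5.35 and 6.70 in the IUGR libraries, against 3.81, 4.54 and 5.45 in the control libraries, with a log2 fold change of 0.45 ± 0.15 and groups that overlapped. Fads2, the delta-6 desaturase that starts the synthesis of long polyunsaturated fatty acids, had 31.0, 25.5 and 27.0 in the IUGR libraries, against 51.1, 31.4 and 32.4 in the control libraries. It was the member whose IUGR libraries all lay below the controls, with a log2 fold change of -0.46 ± 0.19. Without control replicate 1 it was -0.20. The other 5 genes overlapped between the groups, with log2 fold changes between -0.38 for Fads1, the delta-5 desaturase, and 0.09 for Acly, the ATP citrate lyase. Control replicate 1 had the highest level of the 6 libraries for Fasn, Acaca, Fads1, Fads2 and Srebf1, and it was also the 2-week library with the largest acinar share, 38.4%. Without that library the log2 fold change was -0.0477 for Fads1, 0.0473 for Acaca and 0.03 for Srebf1, against -0.38, -0.11 and -0.15 with it. When the acinar genes' mean log2 level entered as a covariate, the value was -0.0054 for Fads1, -0.0082 for Fads2, 0.0681 for Acaca and 0.12 for Srebf1. When that of the adipocyte markers entered instead, an alternative added after the data had been seen, it was 0.0997 for Fads1 and -0.0245 for Fads2.

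Markers of adipocytes were at higher levels beside Gpd1 and Scd1 in the 2-week IUGR libraries. By a smaller margin, so were those of mesenchymal, endothelial, macrophage and endocrine cells. All 12 markers of the adipocyte list were found. Their summed level was 363 to 461 scaled CPM in IUGR islets and 67.5 to 258 in control islets at 2 weeks. At 10 weeks the sum was 39.0 to 49.9 in IUGR islets and 77.2 to 172 in control islets. Of the 12 markers, 11 had every 2-week IUGR library above every control library, and Lipe overlapped. Their median log2 fold change at 2 weeks was 1.44, against 0.05 for all transcripts, and 0 of 12 passed an adjusted p under 0.05 by edgeR's quasi-likelihood test. No adipocyte marker was at 0 in a 2-week library. Mesenchymal markers summed to 2380 to 2840 scaled CPM in IUGR islets and 1170 to 2030 in control islets at 2 weeks, endothelial markers to 488 to 579 and 257 to 425, and macrophage markers to 45.5 to 66.2 and 23.8 to 48.6. All 4 mesenchymal, 4 endothelial and 5 macrophage markers found had log2 fold changes above 0 (medians 0.57, 0.53 and 0.63), and 0 of them passed by edgeR. Other endocrine markers, 3 of 3, were above 0 too (median 0.675), and 1 passed by edgeR. Of the beta cell markers 8 of 9 were above 0 (median 0.32), and 0 passed. Acinar and hepatocyte markers had medians of -2.64 and -0.595. The part of any of these cell types, adipocytes among them, in the levels of Gpd1 and Scd1 was not tested. At 10 weeks Plin1 had 0 counts in 2 control libraries, Retn in 1 library of each group, and Lep and Aqp7 in 1 IUGR library.

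Library by library, 11 of the 12 adipocyte markers had the order of Gpd1 among the 2-week controls, lowest in replicate 1 and highest in replicate 3. Lipe, the hormone-sensitive lipase, did not, at 9.73, 18.9 and 17.3 scaled CPM. The order was not particular to adipocyte markers. The beta cell marker sum had it too, at 21900, 24200 and 38500 scaled CPM, and the acinar share ran in reverse, at 38.4%, 20.5% and 19.5%. Mesenchymal, endothelial and macrophage sums were highest in replicate 2. The share of all transcripts with this order was not computed. Adipoq, which encodes the hormone adiponectin, had 23.2, 23.6 and 26.1 scaled CPM in the IUGR libraries, against 1.66, 7.57 and 11.7 in the control libraries. Car3, a carbonic anhydrase abundant in fat, had 107, 96.9 and 102 in the IUGR libraries, against 8.36, 30.7 and 52.2 in the control libraries. Scd1 was likewise highest in replicate 3 of the 2-week controls, and replicates 1 and 2 were close together. In the 2-week IUGR libraries Scd1 ranged from 30.5 to 68.1, while Adipoq stayed within 23.2 to 26.1. With the adipocyte covariate, the log2 fold change at 2 weeks was 1.02 ± 0.40 for Gpd1 and 1.45 ± 0.41 for Scd1. With the acinar covariate it was 2.06 ± 0.60 for Gpd1 and 1.46 ± 0.41 for Scd1. At 2 weeks the adipocyte covariate was 3.325 to 3.512 in IUGR and 0.607 to 2.566 in control libraries. The acinar covariate was 8.261 to 9.274 in IUGR and 10.764 to 12.22 in control libraries. Covariate and group thus cannot be fully told apart in these fits.

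**Figure D2:**
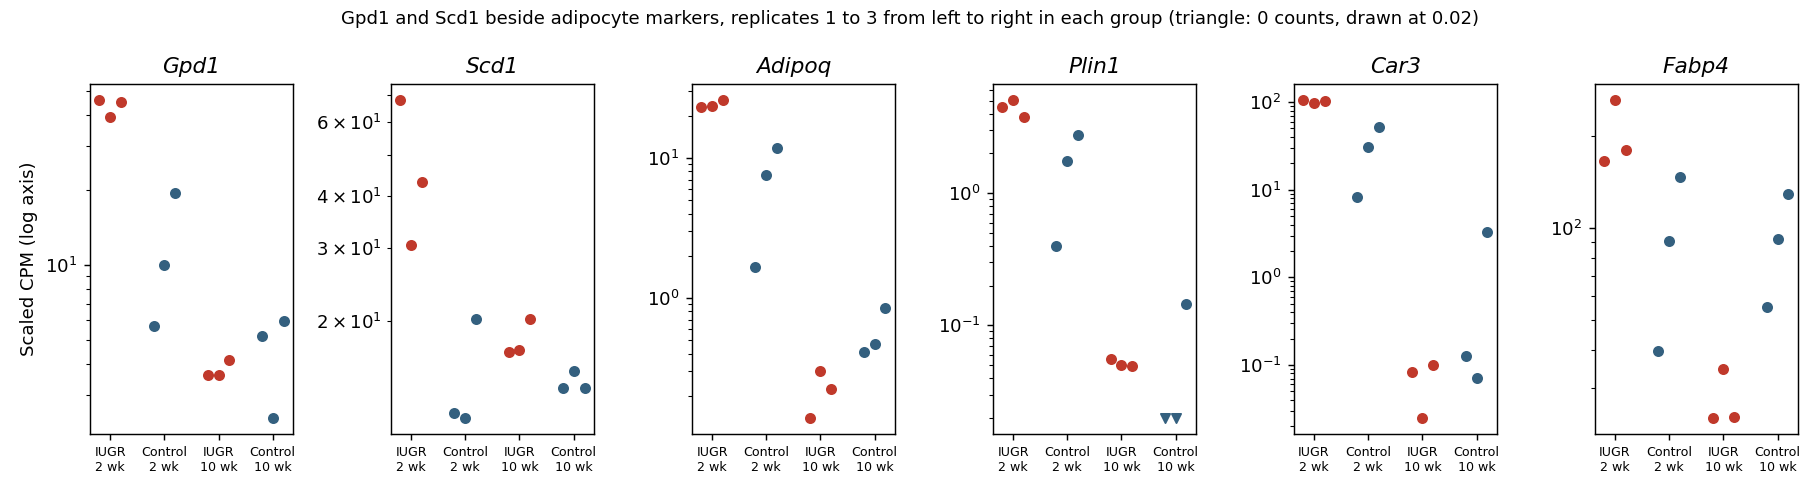
Scaled CPM (log axis) of Gpd1, Scd1 and 4 adipocyte markers in each library, with replicates 1 to 3 from left to right in each group; triangles mark libraries with 0 counts. In the 2-week controls Gpd1 and the 4 markers are lowest in replicate 1 and highest in replicate 3, and the 2-week IUGR libraries lie above them.

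At 10 weeks Me1, Elovl6 and Acly rose in IUGR islets, and Scd1 and Gpd1 did not pass. The stated choice of the set did not use this contrast, but earlier results of these data were known when the set was chosen. The 3 genes that passed are 3 of 10 members, where 27.9% of all transcripts passed, 12.4% as higher and 15.5% as lower, and no member passed as lower. The share of members that passed is thus near that of the whole table. IUGR and control libraries did not overlap for 5 members, 4 higher and 1 lower in IUGR, where 40.2% of all transcripts did not overlap (21.3% higher, 18.9% lower).

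Me1 had 68.6, 74.7 and 73.0 scaled CPM in the IUGR libraries, against 48.9, 46.8 and 41.3 in the control libraries. Its log2 fold change was 0.66 ± 0.18 (SE, n = 3 per group, adjusted p = 0.0195, edgeR quasi-likelihood test with Benjamini-Hochberg adjustment over all transcripts, as for every adjusted p in the text). Acly, which splits citrate into acetyl-CoA and oxaloacetate, had 1270, 1100 and 1330 scaled CPM in the IUGR libraries, against 1050, 794 and 763 in the control libraries, a log2 fold change of 0.50 ± 0.17 (edgeR adjusted p = 0.0464). Both genes had all IUGR libraries above all controls, with a narrow gap for Acly. Elovl6 had 8.60, 9.76 and 7.73 in the IUGR libraries, against 5.80, 5.85 and 5.33 in the control libraries, a log2 fold change of 0.62 ± 0.15 (edgeR adjusted p = 0.0148). Its second listed transcript, with 31.3% of the level of the first, had a log2 fold change of 0.54 at each age.

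The calls at 10 weeks were close to the threshold. Without control replicate 3 none of the 3 genes passed, with log2 fold changes of 0.60 for Me1, 0.42 for Acly and 0.58 for Elovl6 (edgeR adjusted p = 0.0706, 0.167 and 0.0525). Without IUGR replicate 2 none passed either, at 0.63, 0.58 and 0.53 (edgeR adjusted p = 0.0546, 0.0555 and 0.0534). Without IUGR replicate 3, Me1 (0.65, adjusted p = 0.0506) and Acly (0.45, adjusted p = 0.128) did not pass by edgeR. Acly also did not pass without control replicate 2 (0.46, adjusted p = 0.128) or IUGR replicate 1 (0.48, adjusted p = 0.114), by edgeR. None of the 3 passed when acinar level entered as a covariate, or without the 2 controls richest in acinar RNA. The log2 fold changes were 0.49 and 0.65 for Me1, 0.56 and 0.66 for Acly, and 0.56 and 0.59 for Elovl6 in these fits. With the adipocyte covariate Elovl6 passed (0.72, edgeR adjusted p = 0.0275), while Me1 was at 0.64 and Acly at 0.44 (edgeR adjusted p = 0.0651 and 0.153). Beta cell markers, 4 of 9 of which rose at this age, summed to 176000 to 191000 scaled CPM in IUGR islets and 94100 to 142000 in control islets. The part of a larger beta cell share in these levels was not tested.

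The other 7 members did not pass at 10 weeks. Scd1 had 16.8, 17.0 and 20.2 scaled CPM in the IUGR libraries, against 13.8, 15.2 and 13.8 in the control libraries, with no overlap and a log2 fold change of 0.34 ± 0.28 (edgeR adjusted p = 0.387). Gpd1 had 3.62, 3.64 and 4.15 in the IUGR libraries, against 5.2, 2.44 and 5.95 in the control libraries, with a log2 fold change of -0.24 ± 0.41 (edgeR adjusted p = 0.702). The Gpd1 controls lay on both sides of the IUGR libraries. Acaca, the cytosolic acetyl-CoA carboxylase that makes malonyl-CoA, had 31.4, 29.2 and 30.1 in the IUGR libraries, against 33.4, 32.2 and 35.5 in the control libraries. These groups did not overlap, at a log2 fold change of -0.15 ± 0.12 (edgeR adjusted p = 0.345). Fasn, the synthase itself, ranged from 78.5 to 95.5 in IUGR islets and from 82.0 to 89.4 in control islets, a log2 fold change of 0.05 ± 0.12 (edgeR adjusted p = 0.778). Fads1, Fads2 and Srebf1, the precursor of the sterol-responsive factor SREBP-1 that turns on this pathway in liver and fat, overlapped between the groups and had log2 fold changes between -0.10 and 0.13.

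**Figure D3:**
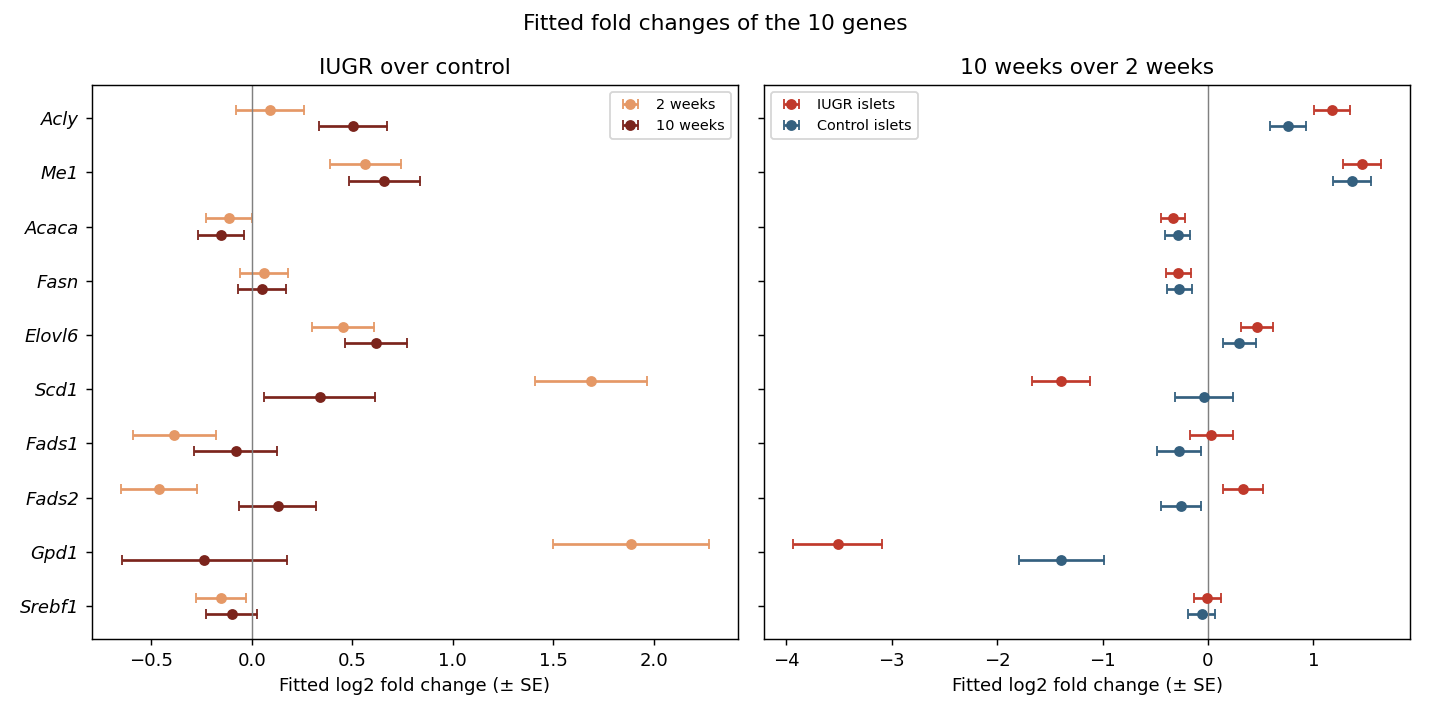
Fitted log2 fold change with its SE for each gene, IUGR over control at 2 and 10 weeks on the left, and 10 over 2 weeks in IUGR and control islets on the right. Scd1 and Gpd1 lie far to the right at 2 weeks and near 0 at 10 weeks, whereas Me1 and Acly have the largest positive values over age in both groups.

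The difference between the IUGR effects, 10 weeks minus 2 weeks, was -2.12 ± 0.56 on the log2 scale for Gpd1 and -1.35 ± 0.39 for Scd1. With the adipocyte covariate the values were -0.62 for Gpd1 and -0.96 for Scd1. The difference contains the 2-week contrast by which the set was chosen and is given without a test. Across all transcripts 14.3% passed for this difference. For Me1, Elovl6, Fasn, Acaca and Srebf1 the difference lay between -0.04 and 0.16, for Fads1 and Acly it was 0.31 and 0.41, and for Fads2 it was 0.59 ± 0.27.

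Over age, Me1 and Acly rose in both groups. In IUGR islets Me1 averaged 72.1 ± 3.18 scaled CPM at 10 weeks and 26.1 ± 7.34 at 2 weeks (SD, n = 3 each), a log2 fold change of 1.46 ± 0.18 (edgeR adjusted p = 5.9e-05). In control islets Me1 averaged 45.6 ± 3.94 at 10 weeks and 17.7 ± 2.91 at 2 weeks, a log2 fold change of 1.37 ± 0.18 (edgeR adjusted p = 0.00045). No 10-week library overlapped with a 2-week library of its group for either gene. Acly averaged 1230 ± 122 at 10 weeks and 546 ± 39.6 at 2 weeks in IUGR islets, a log2 fold change of 1.17 ± 0.17 (edgeR adjusted p = 0.000179). In control islets it averaged 870 ± 159 at 10 weeks and 513 ± 77.4 at 2 weeks, a log2 fold change of 0.76 ± 0.17 (edgeR adjusted p = 0.00673). Both genes passed with each library of the comparison left out in turn. Without the 2 acinar-rich 10-week controls Acly in control islets was at 0.63 (edgeR adjusted p = 0.0728). With the adipocyte covariate, a fit in which 26 of 20733 transcripts passed over age in IUGR islets, Me1 was at 1.40 and Acly at 0.91 there (edgeR adjusted p = 0.191 and 0.343), and Acly in control islets was at 0.65 (edgeR adjusted p = 0.116). Beta cell markers also rose over age, 9 of 9 in each group, with median log2 fold changes of 2.11 in IUGR and 1.88 in control islets. Their sum was 176000 to 191000 scaled CPM at 10 weeks and 33900 to 38300 at 2 weeks in IUGR islets, and 94100 to 142000 at 10 weeks and 21900 to 38500 at 2 weeks in control islets. Mesenchymal markers fell, 4 of 4 in each group, with medians of -4.30 in IUGR and -1.65 in control islets. The part of beta and mesenchymal cells in the levels of Me1 and Acly was not tested.

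The synthase and carboxylase genes did not share that rise. Acaca fell in IUGR islets to 29.2 to 31.4 scaled CPM at 10 weeks, against 36.0 to 40.5 at 2 weeks, a log2 fold change of -0.33 ± 0.12 (edgeR adjusted p = 0.0301). It passed only when IUGR 2-week replicate 3 was the library left out, and the adjusted p by edgeR was between 0.0513 and 0.103 without any of the other 5, at log2 fold changes between -0.36 and -0.28. In control islets Acaca had a log2 fold change of -0.29 ± 0.12 (edgeR adjusted p = 0.0757). Fasn had log2 fold changes of -0.28 in IUGR and -0.27 in control islets (edgeR adjusted p = 0.0643 and 0.103), and all 10-week libraries lay below all 2-week libraries in each group. Fasn passed without IUGR 2-week replicate 2 (-0.36, edgeR adjusted p = 0.0408), and Acaca in controls passed without control 2-week replicate 2 (-0.37, edgeR adjusted p = 0.0495). Elovl6 rose in IUGR islets, to 8.70 ± 1.02 at 10 weeks against 6.32 ± 0.841 at 2 weeks (log2 fold change 0.46 ± 0.15, edgeR adjusted p = 0.0229). Without IUGR 2-week replicate 2 or IUGR 10-week replicate 2 it did not pass (0.36 and 0.37, edgeR adjusted p = 0.0939 and 0.0872). In control islets Elovl6 was at 0.30 ± 0.16 (edgeR adjusted p = 0.162). The difference of these changes between the groups is the same quantity as the difference of the IUGR effects, 0.16 for Elovl6.

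Of the 8 members tested over age, 4 passed in IUGR islets, 3 higher and 1 lower, where 56.5% of all transcripts passed (27.3% higher, 29.2% lower). In control islets 2 passed, both higher, where 32.3% of all transcripts passed (17.2% higher, 15.1% lower). Libraries of the ages did not overlap for 69.4% of all transcripts in IUGR islets and 41.1% in control islets, and for 8 and 4 of the 10 members. Fads1, Fads2 and Srebf1 passed in neither group, with log2 fold changes between -0.27 and 0.33. Gpd1 and Scd1 share the 2-week libraries with the contrast that chose them and are described only. Gpd1 averaged 3.8 ± 0.303 scaled CPM at 10 weeks and 43.4 ± 3.65 at 2 weeks in IUGR islets, and 4.53 ± 1.85 at 10 weeks and 11.7 ± 7.01 at 2 weeks in control islets. The adipocyte marker sums given above were also lower at 10 weeks in IUGR islets, without overlap. So were those of mesenchymal markers, at 81.7 to 100 against 2380 to 2840 scaled CPM. Endothelial sums were 186 to 256 against 488 to 579. Acinar, hepatocyte and other endocrine sums were lower without overlap too, macrophage sums overlapped, and beta cell sums were higher. The part of these cell types in the level of Gpd1 was not tested. Scd1 averaged 18.0 ± 1.93 at 10 weeks in IUGR islets and 14.2 ± 0.792 at 10 weeks in control islets, close to the 14.6 ± 4.83 of control islets at 2 weeks.

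The promoters of Acly and Me1 are shown because these genes moved together over age and at 10 weeks, and that of Scd1 because it did not follow them. Each run is the 250 bases before the annotated start from RefSeq on GRCr8, read 5′ to 3′ on the coding strand, the minus strand for all 3. The windows are chr10:85963632-85963881 for Acly, chr8:96540245-96540494 for Me1 and chr1:253231732-253231981 for Scd1, which RefSeq lists under the symbol Scd. Capitals mark GGGCGG, the box bound by Sp1 factors, and CCAAT, the box bound by NF-Y, each on either strand, where it reads CCGCCC or ATTGG. No marked match overlaps another.
Acly: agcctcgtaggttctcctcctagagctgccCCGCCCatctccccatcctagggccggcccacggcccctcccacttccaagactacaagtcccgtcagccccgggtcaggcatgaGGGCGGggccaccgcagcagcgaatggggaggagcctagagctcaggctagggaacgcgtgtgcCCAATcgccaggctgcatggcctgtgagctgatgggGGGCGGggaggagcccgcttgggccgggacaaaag
Me1: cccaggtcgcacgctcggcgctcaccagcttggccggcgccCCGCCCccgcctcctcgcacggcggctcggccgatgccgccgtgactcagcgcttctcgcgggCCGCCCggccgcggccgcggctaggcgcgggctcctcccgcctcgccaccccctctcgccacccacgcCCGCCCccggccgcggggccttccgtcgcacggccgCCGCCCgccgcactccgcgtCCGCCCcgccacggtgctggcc
Scd1: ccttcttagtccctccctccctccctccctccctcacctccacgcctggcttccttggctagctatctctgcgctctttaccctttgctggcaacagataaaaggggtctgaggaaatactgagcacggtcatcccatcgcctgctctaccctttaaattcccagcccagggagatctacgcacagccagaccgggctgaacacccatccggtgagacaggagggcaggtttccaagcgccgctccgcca
Acly holds GGGCGG 3 times and CCAAT 1 time, Me1 holds GGGCGG 5 times, and Scd1 holds neither in this window. Among 33469 rat windows of the same length, 30.5% hold GGGCGG and 34.0% hold CCAAT on either strand. The E-box CACGTG, found in 5.59% of windows, the sterol response element TCACNCCAC, found in 0.974%, and TATAAA, found in 12.9%, occur in none of the 3. The base composition differs, with a GC content of 68.0% for Acly, 83.2% for Me1 and 58.8% for Scd1, against a median of 51.2% over all windows. Such matches describe letters and not bound sites. Entries were found for 6 of the 10 members, which leaves out Acaca, Fasn, Elovl6 and Gpd1. Fads1 and Fads2, which passed neither at 10 weeks nor over age, held GGGCGG 1 time each, with a GC content of 73.2% and 68.0%. Srebf1, which did not pass either, held it 2 times in each of its 2 windows, at 64.0% and 70.4%. The box is thus not particular to the genes that rose, and its part in their levels was not tested.

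Across the 12 libraries, likeness was measured as the root mean square difference of log2 CPM after each gene was centred on its own mean. The 11438 candidates had a mean log2 CPM of at least 1. Adipocyte markers at low levels, such as Lep and Retn, were thus left out. Fabp4, Lipe and Cfd, at 2.09 scaled CPM or more in each library, were candidates. None of these is among the 5 genes nearest to Gpd1 or Scd1. The genes with the pattern most like Scd1 were Agt, Acta1, Slc7a10, Ncs1 and Oxtr, at 0.33 to 0.43. Those most like Gpd1 were Hdc, Col14a1, Ltbp2, Susd5 and Fam198b, at 0.56 to 0.66. The distance between Scd1 and Gpd1 themselves was 0.99, which put Scd1 at rank 521 of the genes nearest to Gpd1. Fasn, which varied little, was most like Aimp2, Med16, Sco2, Polr2i and Lin54, at 0.07 to 0.10. Its nearest member was Acaca, at 0.13, followed by Srebf1 at 0.18 and Fads1 at 0.24, whereas Acly was at 0.66 and Me1 at 0.92. A gene with little variation is near every other such gene by this measure.

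The pathway around these members was read from 9 lists with 126 genes, of which 122 were found and 120 tested. At 2 weeks 4 of the 120 passed (3.33%), 2 higher and 2 lower in IUGR islets, with a median log2 fold change of 0.03, against 0.05 for all transcripts. At 10 weeks 39 passed (32.5%), 23 higher and 16 lower in IUGR islets, with a median of -0.03, against -0.01 for all transcripts. Both shares are near those of the whole table, 3.88% and 27.9%.

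At 2 weeks the genes that passed were Hsd17b12, Acsl1, Lpin3 and Mlxipl, of which the last 3 are named because so few passed. Mlxipl encodes ChREBP, the glucose-responsive factor that turns on lipogenic genes. It had 11, 11.6 and 11.4 scaled CPM in the IUGR libraries, against 16.8, 18.0 and 21.0 in the control libraries, so that it fell in IUGR islets (log2 fold change -0.71 ± 0.16, edgeR adjusted p = 0.0479). At 10 weeks it had 24.1, 17.4 and 26.3 in the IUGR libraries, against 16.4, 16.4 and 11.9 in the control libraries, and rose (0.60 ± 0.17, edgeR adjusted p = 0.0229). The groups did not overlap at either age and lay in opposite orders. The difference between the effects was 1.31 ± 0.23 (edgeR adjusted p = 0.00663), and it lay between 1.19 and 1.47 with any 1 of the 12 libraries left out (edgeR adjusted p = 0.00425 to 0.0209). It contains both contrasts, for which Mlxipl was named, and is not separate support. The 2-week call itself was lost without any 1 of the 6 libraries (-0.78 to -0.62, edgeR adjusted p = 0.0535 to 0.174). The 10-week call was lost without control replicate 3 or IUGR replicate 1 or 3 (0.47, 0.55 and 0.47, edgeR adjusted p = 0.0872, 0.0688 and 0.0827). Once acinar level entered as a covariate, the 10-week value was -0.12.

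Acsl1, an acyl-CoA synthetase that activates fatty acids and is abundant in fat and liver, had 78.8, 80.3 and 76.8 scaled CPM in the 2-week IUGR libraries, against 37.5, 38.8 and 53.5 in the control libraries (log2 fold change 0.86 ± 0.21, edgeR adjusted p = 0.0488). It was at 0.60 with the adipocyte covariate (edgeR adjusted p = 0.91) and at 1.19 with the acinar covariate (edgeR adjusted p = 0.318), fits in which 0 of 20733 transcripts passed by edgeR (1098 and 2618 at an unadjusted p under 0.05). Without any library but control replicate 3 it did not pass (edgeR adjusted p = 0.107 to 0.181, at 0.77 to 0.88). Lpin3, a phosphatidate phosphatase of triglyceride synthesis, had 12.3, 12.8 and 14.1 in the IUGR libraries, against 27.6, 22.4 and 22.9 in the control libraries (-0.89 ± 0.12, edgeR adjusted p = 0.0132). It did not pass without control replicate 2 or any 1 of the IUGR libraries (-0.95 to -0.85, edgeR adjusted p = 0.0546 to 0.11). Hsd17b12, the ketoacyl reductase of the elongation cycle, had 23.1, 22.8 and 24.7 in the IUGR libraries, against 15.4, 14.7 and 17.0 in the control libraries (0.58 ± 0.09, edgeR adjusted p = 0.0223). It passed only without control replicate 3, and without any of the other 5 its log2 fold change was 0.54 to 0.61 (edgeR adjusted p = 0.0814 to 0.13). With the adipocyte and acinar covariates Lpin3 was at -0.73 and -0.56, Hsd17b12 at 0.62 and 0.57, and Mlxipl at -0.66 and -1.06. Of the 4 genes 0 passed in either fit, or with only the 6 libraries of the comparison.

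At 10 weeks the lists that adjoin the members held changes in both directions. Of 15 tested genes that supply carbon and NADPH, 4 rose and 2 fell in IUGR islets (median log2 fold change 0.01). Mdh1, the cytosolic malate dehydrogenase, had 661, 634 and 695 scaled CPM in the IUGR libraries, against 444, 318 and 329 in the control libraries (0.87 ± 0.15, edgeR adjusted p = 0.00357). Pc, the pyruvate carboxylase, rose by 0.57 ± 0.11 (edgeR adjusted p = 0.00489), and Acss1, a mitochondrial acetyl-CoA synthetase, fell by 1.70 ± 0.28 (edgeR adjusted p = 0.0026). Slc25a10, the dicarboxylate carrier, fell by 1.15 ± 0.22 (edgeR adjusted p = 0.00475). With the acinar covariate Slc25a10 was at -0.0622 (edgeR adjusted p = 0.93), and without the 2 acinar-rich controls at -0.81 (edgeR adjusted p = 0.061). Of 11 genes around malonyl-CoA and the synthase, 1 rose and 1 fell (median -0.20). The gene that fell was Acacb, the carboxylase isoform at the mitochondrial membrane. It had 3.06, 1.87 and 1.71 in the IUGR libraries, against 11.2, 8.20 and 13.8 in the control libraries (-2.32 ± 0.30, edgeR adjusted p = 0.0011).

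Of 9 tested genes of the elongation cycle, 2 rose and 2 fell (median -0.01). Elovl4, the elongase of very long chains, had 6.82, 6.70 and 8.72 scaled CPM in the IUGR libraries, against 3.61, 3.57 and 3.5 in the control libraries (1.06 ± 0.19, edgeR adjusted p = 0.00399). Hsd17b12 rose here too (0.50 ± 0.09, edgeR adjusted p = 0.00356), and Elovl7 fell (-1.28 ± 0.31, edgeR adjusted p = 0.0141). Elovl7 did not pass without control replicate 3 or IUGR replicate 3 (-1.16 and -1.08, edgeR adjusted p = 0.0566 and 0.0518). The other gene that fell, Elovl1, lay at the threshold (-0.22 ± 0.07, edgeR adjusted p = 0.049999). It did not pass without any 1 control replicate or IUGR replicate 1 or 3 (-0.21 to -0.17, edgeR adjusted p = 0.0639 to 0.169). Of 10 desaturation partners 0 rose and 2 fell (median -0.08). These were Degs2, a sphingolipid desaturase (-2.65 ± 0.48, edgeR adjusted p = 0.0041), and Cyb5r1, a cytochrome b5 reductase (-0.71 ± 0.15, edgeR adjusted p = 0.00761).

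Among 23 regulators of lipogenesis 3 rose and 4 fell (median -0.06). Nr1h3, the nuclear receptor LXR alpha that induces Srebf1 and Scd1 in liver, had 2.56, 3.16 and 3.01 scaled CPM in the IUGR libraries, against 4.44, 7.01 and 7.12 in the control libraries (-1.09 ± 0.18, edgeR adjusted p = 0.00292). Of 18 genes of glycerol phosphate and triglyceride synthesis 2 rose and 4 fell (median -0.12). Dgat2, which catalyses the last step of triglyceride synthesis, had 1.11, 1.64 and 1.19 in the IUGR libraries, against 2.98, 3.24 and 6.50 in the control libraries (-1.68 ± 0.30, edgeR adjusted p = 0.00383). Agpat2 and Plin3 fell as well, by 0.91 ± 0.14 and 1.04 ± 0.17 (edgeR adjusted p = 0.00197 and 0.00292). Adipocyte marker sums were lower in the same IUGR libraries, and 3 of the 12 markers, Fabp4, Lipe and Pparg, fell; endothelial and mesenchymal markers, 4 of 4 each, fell too. Dgat2, Agpat2 and Plin3 were at -1.18, -0.79 and -0.98 at 10 weeks with the adipocyte covariate (edgeR adjusted p = 0.0145, 0.0124 and 0.0168). The part of adipocytes and of endothelial and mesenchymal cells in the lower genes was not tested.

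Of 9 tested acyl-CoA synthetases 3 rose and 0 fell (median 0.02), among them Acsl6, with 19.8, 25 and 22.1 scaled CPM in the IUGR libraries, against 13.3, 11.6 and 9.64 in the control libraries (0.95 ± 0.19, edgeR adjusted p = 0.00607). Of 15 oxidation genes 5 rose and 1 fell (median -0.09), led by Hadh, a mitochondrial dehydrogenase well known in beta cells (0.70 ± 0.15, edgeR adjusted p = 0.00849). Of 10 cholesterol genes governed by SREBP-2, 3 rose and 0 fell (median 0.29). Among these were Sqle and Idi1, at 0.46 ± 0.12 and 0.55 ± 0.16 (edgeR adjusted p = 0.0185 and 0.0266). Their 2-week log2 fold changes were 0.43 and 0.56 and did not pass. At 10 weeks Sqle did not pass without control replicate 3 or IUGR replicate 3 (0.41 and 0.44, edgeR adjusted p = 0.0671 and 0.0548). Idi1 did not pass without control replicate 2 or 3 or any 1 IUGR replicate (0.52 to 0.61, edgeR adjusted p = 0.0518 to 0.0743). When acinar level entered as a covariate, Elovl7 and Degs2 at 10 weeks were at 0.59 and 0.10. In that fit Acss1 was at -0.41, Acacb at -0.87, Dgat2 at -1.01, Elovl4 at 0.49 and Sqle at 0.25. Of the 31 pathway genes that passed at 10 weeks and were followed through every alternative, 1 passed with the acinar covariate, Nr1h3. Mdh1 was at 1.10 ± 0.39 in that fit, against 0.87 ± 0.15 in the main fit. Without the 2 most acinar-rich controls 19 of the 31 passed, and with the adipocyte covariate 24 did.

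**Figure D4:**
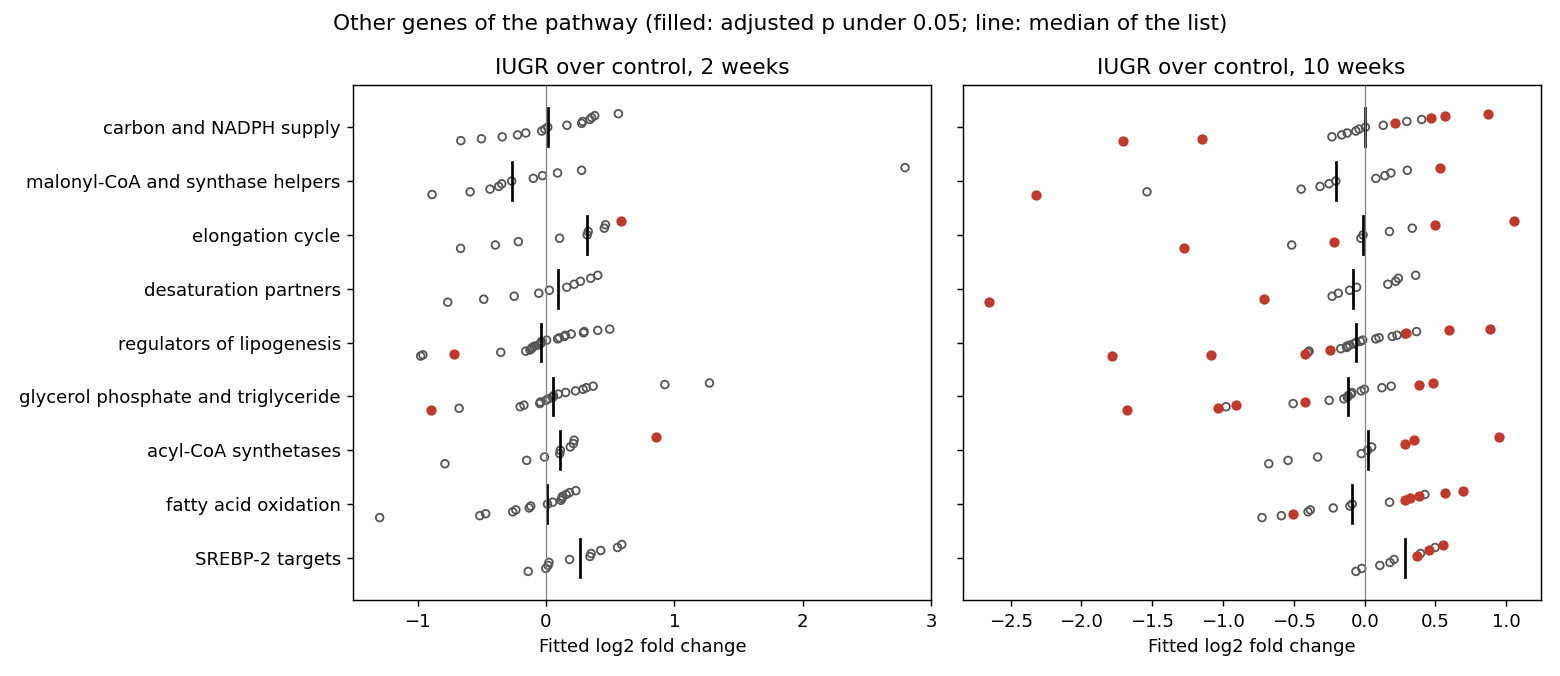
Fitted log2 fold change, IUGR over control, of each tested gene in the 9 pathway lists at 2 weeks (left) and 10 weeks (right); filled points have an adjusted p under 0.05 and the line is the median of the list. Filled points lie on both sides of 0 in most lists at 10 weeks, and all list medians at that age lie between -0.20 and 0.29.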

How the data were processed

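RNA was measured in 12 libraries of rat islets. The deposited table holds raw counts per Ensembl rat transcript, made by the authors, with no normalization. TopHat2 2.0.9 and bedtools, and the builds rn5 and mm9, are listed per the submitters' processing notes, with no role for any of them. How reads were counted, on which strand and with which annotation was not given in the sources used here. RNA integrity numbers were above 7, per the labels' protocols. Several transcripts of a gene can share reads: the second transcripts of Acly and Srebf1 had 99.9% and 99.3% of the level of the first. Reads shared among the desaturase genes, or among Acaca and Acacb, could be split in ways that cannot be checked.

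These counts entered edgeR 4.0.16 (R 4.3.3), where filterByExpr removed low transcripts and TMM scaled the libraries. A single robust quasi-likelihood model held the 4 groups. P-values were adjusted by the Benjamini-Hochberg method over 20733 transcripts, passing under 0.05, and each SE was the size of the log2 fold change divided by √F. Alternatives changed the tool (DESeq2 1.42.0), the scaling (RLE), the filter (none), the design (a replicate block or an acinar covariate) and the libraries (those of a comparison alone, each left out in turn, or without the 2 most acinar-rich 10-week controls). Others left out acinar genes with the 20 most abundant transcripts, or kept 1 transcript per symbol. The adipocyte covariate, and all alternatives for genes outside the 10, were added after seeing the data. The fit without 2 controls leaves 1 library, assumed to vary like the other groups.

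The members and gene lists were chosen with earlier results of these data known. All members are named. From each pathway list at most 4 genes with the smallest p among those that passed at 10 weeks could be named, and genes that passed at 2 weeks were added. Some genes that this rule takes are not reported here. Likeness was computed for Scd1, Gpd1 and Fasn among transcripts with a mean log2 CPM of at least 1, and the 5 nearest named. Pgd, Pdha1, Hacd3 and Scd were not matched in the table. Scd is the RefSeq symbol of the member Scd1, which the table holds as Scd1, so it is not a separate missing gene. Markers of macrophages, hepatocytes and other endocrine cells were computed too. Their sums at 2 weeks were 45.5 to 66.2 in IUGR and 23.8 to 48.6 in control islets for macrophages, 9.11 to 22.3 and 14.8 to 36.3 for hepatocytes, and 19300 to 34500 and 11700 to 25800 for other endocrine cells. At 10 weeks they were 34.4 to 55.0 and 39.9 to 99.3, 3.14 to 8.21 and 8.21 to 11.4, and 6620 to 15200 and 5360 to 9300. The steps were tested on simulated counts.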

Additional observations from a re-analysis of the deposited data

Results flagged for a closer look

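Of the 120 tested pathway genes 12 passed for the difference between the IUGR effects at the 2 ages (10.0%), 4 higher and 8 lower. That share lay below the 14.3% of all transcripts. The 8 pathway genes described here are among those that also passed at 2 or 10 weeks. The difference, 10 weeks minus 2 weeks on the log2 scale, was -2.12 ± 0.56 for Gpd1 and -1.35 ± 0.39 for Scd1. This is a description with no test because both were chosen for their high 2-week values. With the adipocyte covariate the values were -0.62 for Gpd1 and -0.96 for Scd1, and with the acinar covariate -1.86 and -1.62. Without the 2 acinar-rich 10-week controls they were -1.25 and -1.44. The 8 other genes were tested with edgeR's quasi-likelihood test over all transcripts, of which 14.3% passed for this difference. The difference contains the contrasts by which these 8 were picked, so their p-values are not separate support. Dgat2 had a difference of -2.60 ± 0.40 (adjusted p = 0.00385), Plin3 of -1.19 ± 0.24 (adjusted p = 0.00981) and Agpat2 of -1.14 ± 0.19 (adjusted p = 0.00516). These 3 genes of triglyceride synthesis and storage had values above 0 in IUGR islets at 2 weeks (0.93, 0.15 and 0.23, not passing) and fell at 10 weeks. Nr1h3 had a difference of -1.09 ± 0.25 (adjusted p = 0.017), Acacb of -1.44 ± 0.39 (adjusted p = 0.034) and Acsl1 of -1.19 ± 0.29 (adjusted p = 0.0213). The difference was above 0 for Mlxipl, at 1.31 ± 0.23 (adjusted p = 0.00663), and for Lpin3, at 0.77 ± 0.16 (adjusted p = 0.012). With the adipocyte covariate 0 of 20733 transcripts passed for this difference (2173 at an unadjusted p under 0.05, by edgeR), and the 8 genes were at 1.23 for Mlxipl, 0.51 for Lpin3, -1.41 for Dgat2, -1.03 for Plin3, -0.83 for Agpat2, -0.57 for Nr1h3, -2.08 for Acacb and -0.76 for Acsl1. Acacb did not pass without any 1 of the IUGR 2-week replicates, control 2-week replicate 2 or 3, IUGR 10-week replicate 2 or 3, or control 10-week replicate 3 (-1.47 to -1.19, adjusted p = 0.062 to 0.0985). Acsl1 did not pass without IUGR 2-week replicate 2, control 10-week replicate 3 or IUGR 10-week replicate 1 (-1.18, -1.06 and -1.11, adjusted p = 0.0515, 0.0651 and 0.0547). Without the 2 acinar-rich 10-week controls Acsl1 was at -0.60 (adjusted p = 0.107) and Acacb at -1.02 (adjusted p = 0.142). The other 6 passed without any 1 of the 12 libraries.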

How the results depend on the processing

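The numbers of members passing depended on the processing. Those for IUGR at 2 weeks and for the difference hold the values that chose Scd1 and Gpd1, as do those over age for these 2 genes, and are a description, not a test. For IUGR at 2 weeks 2 members passed, against 4 with DESeq2, 1 with no filter on low counts, 0 with the adipocyte covariate, the acinar covariate or only the 6 libraries, and 0 to 4 with 1 library left out. Over all transcripts 3.88% passed, against 15.5% with DESeq2, 0.518% with no filter and 0 to 11.2% with 1 library left out. With the adipocyte covariate or the acinar covariate 0 of 20733 passed by edgeR, and with only the 6 libraries 0 of 20268, where 1098, 2618 and 6239 had an unadjusted p under 0.05. For IUGR at 10 weeks 3 passed, against 1 with the adipocyte covariate, 0 with the acinar covariate or without the 2 acinar-rich controls, and 0 to 3 with 1 library left out. In these 3 fits 17.7%, 9.79% and 21.1% of all transcripts passed, against 27.9%. For the difference between the effects 2 passed, against 0 with the adipocyte covariate, with no filter or without those controls, and 0 to 2 with 1 library left out. Over all transcripts 14.3% passed, against 0, 8.6% and 18.0%. Over age in IUGR islets 6 passed, against 0 with the adipocyte covariate (56.5% and 0.125% of all transcripts), and in control islets 3, against 1 with only the 6 libraries (32.3% and 17.5%). The adipocyte covariate was chosen after seeing the data. It and the acinar covariate differ between the groups, so covariate and group cannot be fully told apart in these fits. With the replicate block 2 members passed at 2 weeks, 3 at 10 weeks, 2 for the difference, 8 over age in IUGR islets and 3 in control islets. Over all transcripts 5.9%, 26.8%, 15.6%, 57.1% and 33.3% passed in that fit, in the same order. Equal replicate numbers carry no pairing in the labels, and the correlations of same-numbered deviations were -0.137 to 0.303 at 2 weeks and -0.085 to 0.218 at 10 weeks. The samples of a number correlated best with each other for 1 of 3 numbers at 2 weeks and 2 of 3 at 10 weeks.

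Several directions turned, and the cause was not tested. The members that turned at 10 weeks had not passed in the main fit. At that age the acinar covariate gave 0.21 ± 0.26 for Acaca, -0.16 ± 0.69 for Scd1 and 0.65 ± 0.46 for Fads1. It gave 0.20 ± 1.15 for Gpd1, 0.43 ± 0.26 for Srebf1 and 0.59 ± 0.48 for Elovl7. Degs2 was at 0.10 ± 0.67 and Mlxipl at -0.12 ± 0.35 in that fit. The adipocyte covariate gave -0.11 ± 0.12 for Fasn, -0.12 ± 0.18 for Fads2 and 0.39 ± 0.35 for Gpd1. None of these values passed by edgeR. Without the 2 acinar-rich controls Fads1 was at 0.13, Gpd1 at 0.66 and Srebf1 at 0.057. With 1 library left out Fasn ranged from -0.0017 to 0.13, Fads1 from -0.14 to 0.0075 and Gpd1 from -0.53 to 0.0101. Over age in IUGR islets the adipocyte covariate gave -1.11 for Fads1 and -0.73 for Fads2, and Srebf1 was at 0.0004 with DESeq2, 0.0005 with RLE factors and 0.20 with the acinar covariate. With 1 library left out Fads1 ranged from -0.0403 to 0.13 and Srebf1 from -0.0416 to 0.0282 there. In control islets the ranges were -0.45 to 0.0625 for Fads1, -0.43 to 0.0046 for Fads2 and -0.16 to 0.12 for Srebf1. Depth limits Gpd1 at 10 weeks most, with 104 to 168 counts per library.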
